A study of Mus musculus with 8 samples.

Results

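The platelet-derived growth factor (PDGF) genes of the mouse knee were examined: the 4 ligands Pdgfa, Pdgfb, Pdgfc and Pdgfd, the receptor kinases Pdgfra and Pdgfrb, and the receptor-like gene Pdgfrl. They were chosen by name, as every row of the deposited table whose gene name equals one of these symbols, and all 7 were found once among its 20681 rows. All 7 passed the filter on low values (10 or more normalised reads in 4 or more of the 8 libraries), which 14949 genes passed.

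PDGFs are dimeric growth factors that bind cell-surface receptor tyrosine kinases and make mesenchymal cells divide and migrate. PDGF-A and PDGF-B are cut inside the cell by proprotein convertases, whereas PDGF-C and PDGF-D are secreted with a CUB domain that a protease outside the cell must remove before they can bind. PDGF-AA and PDGF-CC act through the alpha receptor, PDGF-BB through either receptor and PDGF-DD mainly through the beta receptor. In connective tissue Pdgfra marks fibroblasts and their progenitors, and Pdgfrb marks pericytes, the mural cells of small vessels, together with many fibroblasts. Pdgfb is made by endothelial cells, megakaryocytes and osteoclast precursors. In the joint these factors are known for their action on synovial fibroblasts and on the mesenchymal cells that repair bone and cartilage.

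RNA was measured by poly-A sequencing of whole knee joints from mice, in 4 libraries labelled control and 4 labelled knockout. The design text places all 8 joints in Acan-Cre;Loxl2 fl/fl mice. In such mice the aggrecan gene drives the Cre recombinase, and Loxl2 can be deleted where Cre is active, above all in cartilage. Loxl2 encodes lysyl oxidase-like 2, an enzyme that crosslinks collagen. The control joints are described as vehicle-treated, their library names carry Vehicle, DMM and LOXL2wt, and those of the other group carry KO, DMM and LOXL2ko. The name LOXL2wt is at odds with a deletion in the control joints, and whether Loxl2 was deleted in them is not known here. DMM, shared by all 8, is not explained there; in joint research it is the usual short form for surgically destabilising the medial meniscus, and the title of the series speaks of injury. What the knockout group received in place of vehicle, the age and sex of the mice, the time after surgery, and whether joints were pooled are not given in the sources used here. Since nothing states that the libraries came from separate animals, the p-values measure only the spread between these samples.

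The libraries held 13991000 to 17411617 reads assigned to genes. Loxl2 itself, read as a check of the labels, had 282 to 349 normalised reads in 3 control libraries, 1135 in control replicate 3, and 893 to 1518 in the libraries labelled knockout. Against its label it was higher in the latter by 1.44 on the log2 scale (adjusted p = 0.0294 in limma; p = 0.0857 by exact permutation), a call that limma kept in 3 of 8 fits with a library left out. The groups are therefore called by their labels throughout, and every direction below is relative to them. Of 10 chondrocyte markers, 9 were in the table and passed the filter. Muscle genes were abundant, and the 16 skeletal muscle markers summed to between 2423910 and 2640872 normalised reads in the control libraries and between 1176614 and 1663760 in the libraries labelled knockout, with 7 of them called lower. No marker of the 13 cell type lists that was in the table was at 0 in every library.

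The 3 receptor genes were called higher and the 4 ligand genes were not called. A difference between receptor and ligand genes was not tested. The log2 difference of the ligand Pdgfc (1.03) was above that of the called Pdgfrb (0.88). Of the 7 genes, Pdgfra, Pdgfrb and Pdgfrl were called higher in the libraries labelled knockout by limma (Benjamini-Hochberg adjusted p under 0.05 over all genes tested), and 0 were called lower. Over all 14949 genes, 23.2% were called, 11.6% higher and 11.6% lower, the background for the 3 of 7. All 7 genes had a mean difference above 0, from 0.16 to 1.51 on the log2 scale with a median of 0.88, while the median over all genes tested was 0.00. The groups did not overlap for Pdgfra and Pdgfrb, as for 11.7% of all genes tested in that direction. Because the joint was taken whole, a change in the number of cells of a type and a change in RNA per cell cannot be told apart. The number of calls rests on the fit: with the skeletal muscle score added as a covariate, limma called 0 of the 7 and 0 genes in all, with 597 at an unadjusted p below 0.05. The groups account for 83.8% of the variance of the muscle score.

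**Figure D1:**
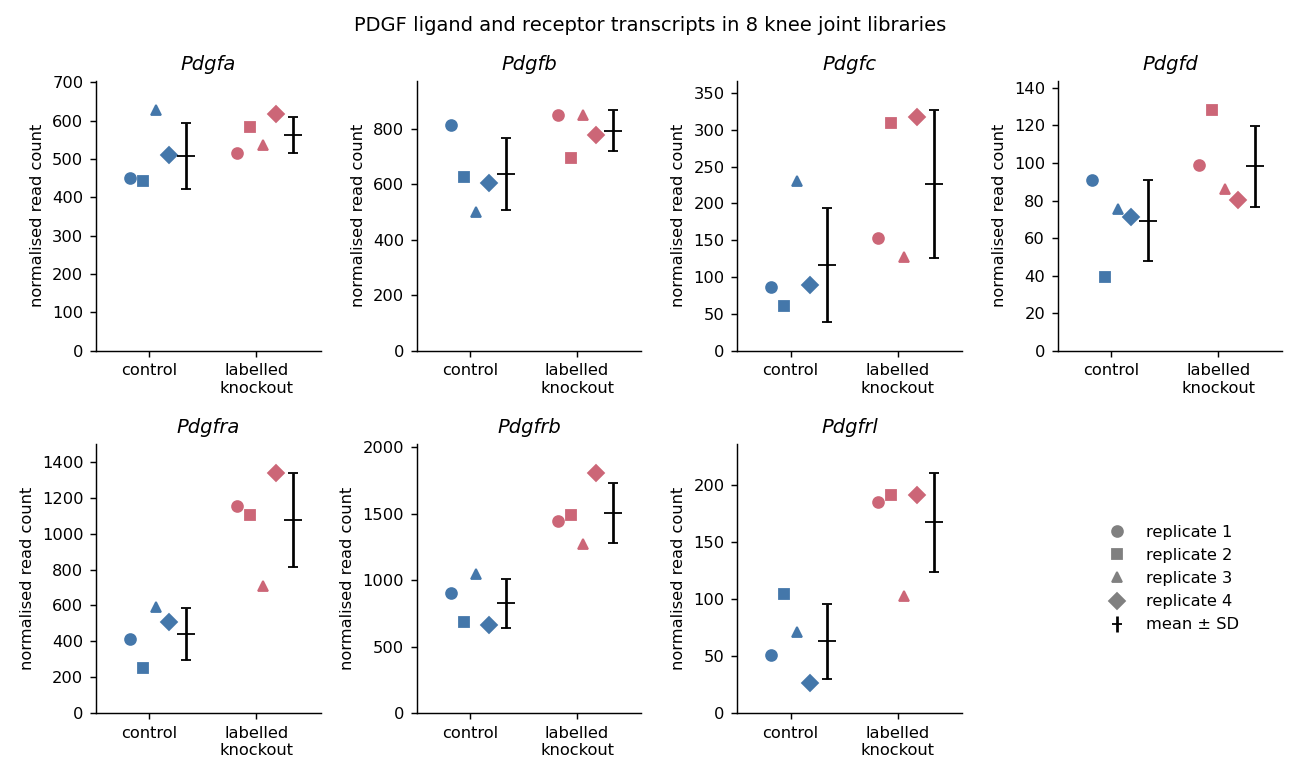
Normalised read count (linear axis from 0) of each of the 7 genes in the 8 libraries, with the marker shape giving the replicate number and the bar the mean ± SD of 4. Every library labelled knockout lies above every control library for Pdgfra and Pdgfrb, and the groups overlap for the other 5 genes.

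Pdgfra encodes the alpha receptor (ENSMUSG00000029231.15; mm10 chromosome 5, 75152292 to 75198215, plus strand). Normalised reads were 416, 251, 593 and 509 in the control libraries, given in the order of their replicate numbers here and below, and 1154, 1102, 709 and 1335 in the libraries labelled knockout. Replicate 3 was the highest control and the lowest of the other group, and the groups did not overlap. The mean rose from 442 ± 146 (SD, n = 4) to 1075 ± 264 (SD, n = 4), a log2 difference of 1.31 (SE 0.27; limma adjusted p = 0.0105). The exact two-sided permutation test over the 70 assignments gave p = 0.0286, the smallest it can give with 4 against 4. The call was kept when each of the 8 libraries was left out (differences 1.06 to 1.498) and in edgeR (adjusted p = 0.0114). The annotation places Gm42802 and Gm42803 opposite exon sequence of Pdgfra, and Mir7025 on the same strand. No values of either Gm gene were used here, and the use of strand in counting is not given in the sources used here.

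Pdgfrb encodes the beta receptor (ENSMUSG00000024620.11; chromosome 18, 61045150 to 61085061, plus strand), and no annotated gene overlaps it. Its count was 907, 687, 1049 and 664 in the control libraries and 1441, 1489.9, 1272 and 1807 in the libraries labelled knockout. Again the groups did not overlap, and control replicate 3 came closest to the other group. The mean rose from 827 ± 184 to 1503 ± 223 (SD, n = 4 each), a log2 difference of 0.88 (SE 0.16; adjusted p = 0.00767 in limma). The exact permutation p was again 0.0286. Its fold change was smaller than that of Pdgfra, but its p-value was the smallest of the 7 genes, at rank 585 of all genes tested. Each of the 8 libraries could be left out with the call kept, at differences of 0.78 to 0.999.

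Pdgfrl encodes a secreted protein that resembles the extracellular part of the PDGF receptors and has no kinase domain (ENSMUSG00000031595.9; chromosome 8, 40926212 to 40990785, plus strand, no overlapping gene). Its count was low, at 50.8, 104, 71.0 and 26.3 in the control libraries and 185, 191, 102 and 191 in the libraries labelled knockout. These values rest on 24 to 223 reads a library. Control replicate 2 lay just above knockout replicate 3, so the groups overlapped by that pair alone. The mean rose from 63.0 ± 32.9 to 167 ± 43.4 (SD, n = 4 each), a log2 difference of 1.51 ± 0.38 (SE), the largest of the 7 (limma adjusted p = 0.0215; exact permutation test, p = 0.0571). The limma call was lost without knockout replicate 1 (adjusted p = 0.0529), 2 (0.0561) or 4 (0.0646), and the adjusted p over the 8 such fits ranged from 0.0155 to 0.0646.

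**Figure D2:**
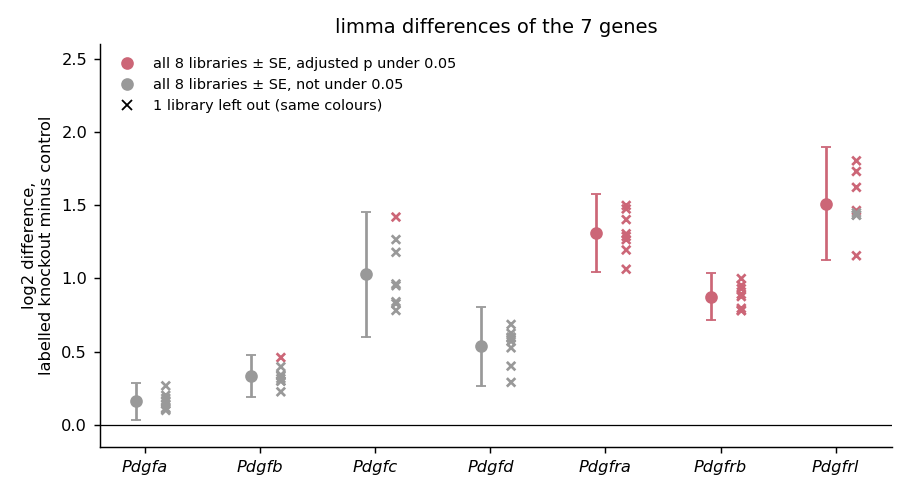
The limma log2 difference (labelled knockout minus control) of the 7 genes, with its standard error (circles) and the values when each library is left out (crosses), red where the adjusted p was under 0.05. Among the 8 fits with a library left out, the receptor kinases keep their call in each, Pdgfrl in 5 of 8, and Pdgfb and Pdgfc gain one in 1 of 8 each.

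Among the ligands, Pdgfa encodes the A chain (ENSMUSG00000025856.15; chromosome 5, 138976014 to 138997370, minus strand). Its count was 451, 443, 628 and 509 in the control libraries and 515, 584, 537 and 618 in the libraries labelled knockout. Control replicate 3 was the highest of all 8, and the groups overlapped. The log2 difference was 0.16 ± 0.12 (SE, limma adjusted p = 0.372, exact permutation p = 0.314), the smallest of the 7 genes. The antisense gene 6330403L08Rik shares exons with Pdgfa and had 309.9 to 462 normalised reads of its own, lower on average in the libraries labelled knockout (340.5) than in the controls (419.8). Without knowledge of strand in the counting, reads of the pair could not be told apart, so the level of Pdgfa is uncertain.

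Pdgfb encodes the B chain (ENSMUSG00000000489.7; chromosome 15, 79995874 to 80014977, minus strand, with no other gene on its exons). Its count was 816, 628, 501 and 605 in the control libraries and 852, 694, 850.4 and 779.9 in the libraries labelled knockout. Only control replicate 1 lay within the range of the other group. The mean was 637 ± 131 and 794 ± 74.4 (SD, n = 4 each), a log2 difference of 0.33 ± 0.14 (SE) that did not pass the test (limma adjusted p = 0.113, exact permutation p = 0.0857). Without control replicate 1 it was called, at 0.46 (adjusted p = 0.0295, in a range of 0.0295 to 0.236 over the 8 such fits).

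Pdgfc encodes a CUB-domain ligand of the alpha receptor (ENSMUSG00000028019.9; chromosome 3, 81036416 to 81214040, plus strand, with Gm16000 opposite exon sequence). Its count was 86.5, 60.6, 231 and 88.7 in the control libraries and 153, 309, 127 and 317 in the libraries labelled knockout. Control replicate 3 stood above 2 libraries of the other group, and the other 3 controls lay below all of them. The mean was 117 ± 77.2 and 226 ± 100.4 (SD, n = 4 each), a log2 difference of 1.03 ± 0.43 (SE) that did not pass the test (limma adjusted p = 0.106, exact permutation p = 0.143). Without control replicate 3 the difference was 1.42 and was called (adjusted p = 0.0199, in a range of 0.0199 to 0.252 over the 8 such fits). Pdgfd encodes the CUB-domain ligand of the beta receptor (ENSMUSG00000032006.15; chromosome 9, 6168584 to 6378850, plus strand). Its count was 90.9, 39.4, 75.7 and 71.2 against 98.7, 128, 85.9 and 80.1, from 39 to 150 reads a library. Control replicate 2 was the lowest, control replicate 1 lay among the other group, and the difference of 0.54 ± 0.27 (SE) did not pass the test (limma adjusted p = 0.169, exact permutation p = 0.0857).

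The 250 bases before the start of Pdgfra and of Pdgfc are shown because these are the alpha receptor and the ligand with the largest log2 difference among the 4, and because neither window holds the GC-rich elements of Pdgfa. Both are RefSeq sequence on GRCm38.p6, the build of mm10, plus strand, at chr5:75152001-75152250 and chr3:81036166-81036415. Capitals mark matches to the motifs searched.
Pdgfra: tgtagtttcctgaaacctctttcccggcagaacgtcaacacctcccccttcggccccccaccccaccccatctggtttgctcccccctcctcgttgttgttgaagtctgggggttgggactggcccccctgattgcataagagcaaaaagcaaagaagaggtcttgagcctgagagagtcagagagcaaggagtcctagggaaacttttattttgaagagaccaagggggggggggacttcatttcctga
Pdgfc: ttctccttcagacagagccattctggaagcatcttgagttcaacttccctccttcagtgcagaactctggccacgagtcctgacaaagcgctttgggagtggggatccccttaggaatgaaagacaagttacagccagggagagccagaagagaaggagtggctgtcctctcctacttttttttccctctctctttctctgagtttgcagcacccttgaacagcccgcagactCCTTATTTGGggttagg

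Promoter windows were found for 4 of the 7 genes (Pdgfa with 2 starts, Pdgfc, Pdgfd and Pdgfra). Both strands were searched for the TATA element TATAAA, the CCAAT box, the GC box GGGCGG, the AP-1 element TGANTCA and the CArG box, the motif of serum response factor. Overlapping matches of a motif were counted separately. The Pdgfra window held 0 matches to the 5 motifs. The Pdgfc window held 1 CArG box, beginning 17 bases before the start, a motif present in 1.47% of the 32851 windows of that length. GGGCGG, present in 32.7% of windows, occurred 1 and 2 times in the windows of Pdgfa and was not matched in the other 3 windows. Pdgfd held 1 TATAAA, 160 bases before its start (12.4% of windows).

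Levels of different genes were compared as normalised reads per kilobase of exon. In the control libraries Pdgfa (163 ± 27.4 per kb), Pdgfb (153 ± 31.5) and Pdgfrb (151 ± 33.6) lay together at the top, with overlapping ranges (SD, n = 4). Pdgfra followed at 44.1 ± 14.6 per kb, below Pdgfrb in 4 of 4 libraries with no overlap. Pdgfc (22.9 ± 15.2), Pdgfd (21.97 ± 6.86) and Pdgfrl (20.2 ± 10.5) were lowest and overlapped each other, and Pdgfc also reached into the range of Pdgfra. In the libraries labelled knockout Pdgfrb headed the order at 274 ± 40.8 per kb, above Pdgfb (191 ± 17.9) in 4 of 4 libraries, and Pdgfra (107 ± 26.3) stayed below Pdgfa (181 ± 14.9) without overlap. Pdgfrl (53.5 ± 13.9), Pdgfc (44.5 ± 19.7) and Pdgfd (31.2 ± 6.81) came last with overlapping ranges, all below the range of Pdgfra. The exons of Pdgfra span 10024 bases when all its transcripts are joined, against 6834 bases in its principal transcript. With that measure of length, the beta receptor no longer stood clear of Pdgfb in the libraries labelled knockout (278 ± 41.3 against 269.7 ± 25.3 per kb, higher in 2 of 4 libraries), and Pdgfrl reached into the range of Pdgfra there. In the control libraries Pdgfrl then ranked 5 in place of 7.

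**Figure D3:**
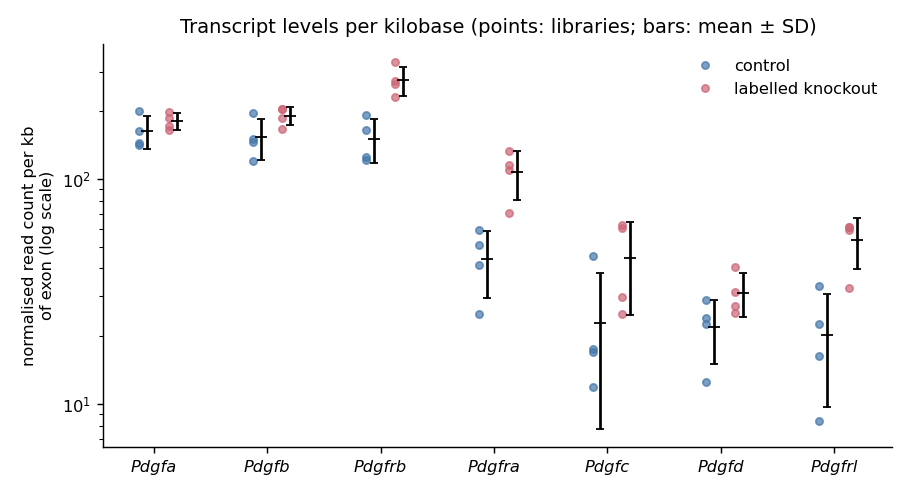
Normalised read count per kilobase of exon (log axis) of the 7 genes, ordered by their control mean, with 1 point a library and bars for the mean ± SD of 4. Pdgfa, Pdgfb and Pdgfrb share the top range in the control libraries, and Pdgfrb is the highest in the libraries labelled knockout.

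The make-up of the ligand pool varied little beside its spread. Per kilobase, Pdgfa took 45.1 ± 5.85% of the summed ligand reads in the control libraries and 40.4 ± 1.55% in the libraries labelled knockout, and Pdgfb took 42.7 ± 8.77% and 42.8 ± 5.59% (SD, n = 4 each). Pdgfc held 6.19 ± 3.64% and 9.82 ± 3.98%. Of the receptor kinases, Pdgfra made up 22.5 ± 5.51% and 27.8 ± 3.09%. For all of these shares the ranges of the groups overlapped.

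Ratios within a library do not depend on the scaling of that library. The log2 ratio of Pdgfra to Pdgfrb was -1.12, -1.45, -0.82 and -0.38 in the control libraries and -0.32, -0.44, -0.84 and -0.44 in the libraries labelled knockout. The groups overlapped, and the difference of 0.43 was within the spread (exact permutation p = 0.20). The ratios of receptors to ligands were added after the values had been seen, so their p-values are no separate support for the differences of the single genes. The level of Pdgfa, uncertain because of its antisense gene, enters the first of them. Pdgfra to Pdgfa was -0.11, -0.82, -0.08 and 0.00 in the control libraries and 1.16, 0.91, 0.40 and 1.11 in the libraries labelled knockout, with no overlap. The difference was 1.15 (exact permutation p = 0.0286), and without control replicate 2 it was 0.96 (exact permutation p = 0.0571). Over the settings tried its exact p lay between 0.0286 and 0.125. Pdgfrb to Pdgfb was 0.15, 0.13, 1.06 and 0.13 against 0.76, 1.10, 0.58 and 1.21. Control replicate 3 lay among the other group, and the difference of 0.54 had an exact permutation p of 0.0857.

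Of 11 fibroblast markers, 11 had a difference above 0, as did 50.07% of all genes tested, with a median log2 difference of 1.10 (limma). Of these 6 were called higher (54.5%, against 11.6% of all genes tested), and edgeR kept 5 of the 6 calls. Thy1, Dpt, Pi16, Clec3b and Mfap5 were not called (limma adjusted p of 0.0933 to 0.727). The groups did not overlap for 2 of the 11, against 11.7% of all genes tested in that direction. The ranges of the fibroblast score overlapped. The summed level of the 11 markers was 39477 to 119332 normalised reads in the control libraries and 161351 to 263194 in the libraries labelled knockout. Col3a1, a fibrillar collagen, rose by 2.40 (adjusted p = 0.0167, kept in 7 of 8 fits with a library left out), Lum, a collagen-binding proteoglycan, by 2.24 (adjusted p = 0.0120), and Fbln1, a matrix glycoprotein, by 1.67 (adjusted p = 0.00397). Set against the mean log2 value of the 11 markers in the same library, Pdgfra was at -1.92 ± 0.49 in the control libraries and -1.89 ± 0.34 in the libraries labelled knockout (SD, n = 4 each). That difference was 0.03 (exact permutation p = 0.943), and it ranged from -0.10 to 0.25 as each library was left out. With 4 libraries a group and this spread, the test cannot show that the groups are equal. The part of the marker level in the rise of Pdgfra was not tested.

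Of 12 mural cell markers 2 were called (16.7%, against 23.2% of all genes tested). Of these 1 was called higher (Cspg4, the NG2 proteoglycan of pericytes, 0.74, limma adjusted p = 0.0277, kept in 3 of 8 fits with a library left out) and 1 lower (Abcc9, a potassium channel subunit also made by muscle, -0.49, adjusted p = 0.00765), with a median of 0.14. Their sum was 11029.9 to 13273 normalised reads in the control libraries and 9785 to 14480.0 in the libraries labelled knockout. Relative to the mural score, Pdgfrb was at 0.74 to 1.40 in the control libraries and 2.34, 1.79, 1.28 and 2.13 in the libraries labelled knockout. Only knockout replicate 3 lay within the control range. The difference was 0.78 (exact permutation p = 0.0857), and without knockout replicate 3 it was 0.98 (exact permutation p = 0.0286). Leaving out any other library gave an exact permutation p of 0.0857 to 0.143. The mural score itself differed by 0.10. Many fibroblasts also carry Pdgfrb, and the fibroblast score differed by 1.29. Pdgfrb was not set against that score, and the part of either cell type in its rise was not tested. Of 12 endothelial markers 0 were called by limma or edgeR and 0 had an unadjusted p below 0.05 (median -0.08), with a sum of 6719 to 8434 and 5414 to 10627 normalised reads. Pdgfb relative to the endothelial score differed by 0.38 (exact permutation p = 0.257).

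**Figure D4:**
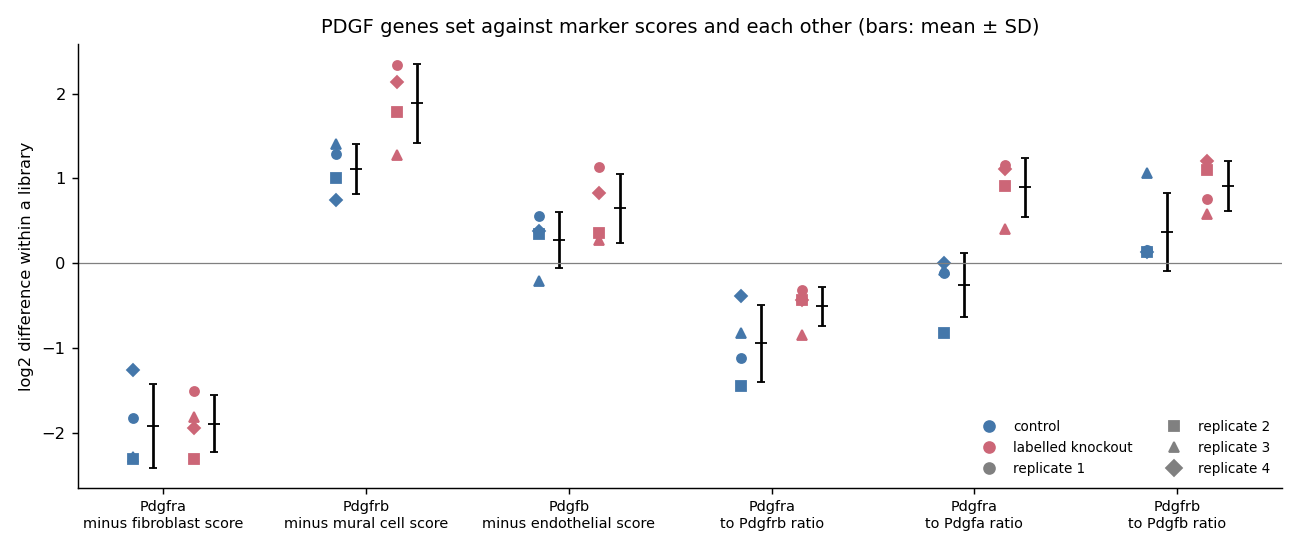
Log2 differences within each library between a PDGF gene and a marker score (left 3) or another PDGF gene (right 3), with marker shapes giving the replicate number and bars the mean ± SD of 4. The groups overlap for Pdgfra minus the fibroblast score and do not overlap for Pdgfra to Pdgfa.

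Markers of osteoclasts (77.8%), macrophages (77.8%) and osteoblasts (57.1%) were called higher in part, against 11.6% of all genes tested. Of 9 osteoclast markers 7 were called higher, among them Ctsk, the bone collagen protease (2.53, limma adjusted p = 0.0114), Oscar (3.47, adjusted p = 0.0127) and Dcstamp, a cell fusion gene (3.51, adjusted p = 0.0189, kept in 5 of 8 fits with a library left out). Their sum was 2822 to 15179 normalised reads in the control libraries and 11195 to 40665 in the libraries labelled knockout. Control replicate 1 stood apart from the other controls, with an osteoclast score of 8.53 against 5.91 to 6.10, within the range of the libraries labelled knockout. edgeR kept 4 of the 7 calls. Of 9 macrophage markers 7 were called higher (sums 2707 to 6369 and 8370.4 to 12708), and the smallest p-values were those of the complement gene C1qb (1.28), Cd68 (1.71) and the complement gene C1qa (1.18). Of 7 osteoblast markers 4 were called higher (sums 1074 to 6987 and 5728 to 12378), with Runx2, a bone transcription factor, at 1.75, Alpl at 1.19 and Ibsp at 2.27, calls kept in 5, 5 and 3 of 8 fits with a library left out. edgeR kept 2 of the 4 calls and lost that of Ibsp (edgeR adjusted p = 0.0879), and control replicate 1 had an osteoblast score of 9.30, within the range of the libraries labelled knockout. The chondrocyte list had 1 call of 9 (Hapln1, 1.28, kept in 7 of 8 such fits), or 11.1% against the 11.6% of all genes called higher. Platelet and megakaryocyte (7), adipocyte (7), Schwann cell (5), erythroid (7) and neutrophil (8) markers had 0 calls by limma or edgeR. Of these 34, 12 (35.3%) had an unadjusted p below 0.05, against 38.4% of all genes tested. They were 7 of 7 erythroid, 4 of 7 platelet and megakaryocyte, and 1 of 8 neutrophil markers. All 7 erythroid markers were lower in the libraries labelled knockout, with a median log2 difference of -1.95. So were 6 of 7 platelet and megakaryocyte markers (median -1.47) and 8 of 8 neutrophil markers (median -0.64). Muscle genes fell: 7 of 16 were called lower (43.75%, against 11.6% of all genes tested), among them Pygm (-0.91), Casq1 (-0.79) and Myoz1 (-0.62). The part of any of these lists in the PDGF values was not tested.

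Of the genes that process or bind PDGFs, several rose. Among 6 tested genes of ligand processing 2 were called higher by limma (33.3%, against 11.6% of all genes tested) and 0 lower. Plat, the tissue plasminogen activator that frees PDGF-C from its CUB domain, had 129.8, 91.9, 148 and 107 normalised reads in the control libraries and 331, 263, 229 and 356 in the libraries labelled knockout. The groups were well apart, with a log2 difference of 1.30 ± 0.19 (SE, adjusted p = 0.0043). Plau, the urokinase that can activate PDGF-D, rose by 0.77 ± 0.21 (SE, adjusted p = 0.0286), a call kept in 1 of 8 fits with a library left out. The convertases of PDGF-A and PDGF-B did not pass the test. Their log2 differences were 0.21 for Furin (adjusted p = 0.140), 1.03 for Pcsk5 (adjusted p = 0.108), 0.45 for Pcsk6 and -0.04 for Pcsk7, and Pcsk5 was called in 1 of 8 fits with a library left out. Of the 3 co-receptors and binders, Lrp1, an endocytic receptor that associates with the beta receptor, rose by 1.29 ± 0.20 (SE, adjusted p = 0.00456). Sparc, a matrix protein that binds PDGF-B, rose by 1.38 ± 0.31 (SE, adjusted p = 0.0149), and Nrp1 was at 0.09 (adjusted p = 0.784).

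Downstream of the receptors the genes moved in either direction. All 32 genes of receptor signalling were tested, and 9 were called higher and 8 lower by limma. In all 53.1% were called, against 23.2% of all genes tested, and the median log2 difference was -0.00. The smallest p-values were those of Map2k2, a kinase of the MAP kinase cascade, which fell by 0.48, Hras, a small GTPase, which fell by 0.47, and Akt1, a survival kinase, which rose by 0.45 (adjusted p = 0.00674, 0.00765 and 0.00784). Src, the cytoplasmic tyrosine kinase recruited by the activated receptors, was picked out after its values were seen as the largest rise, at 1.38 ± 0.29 (SE, adjusted p = 0.0118). Of 12 genes that attenuate receptor signalling 4 were called higher (33.3%, against 11.6% of all genes tested) and 0 lower. Their median log2 difference was 0.19, and the ranges of the list's score overlapped. Dusp4 (-0.20), Spry1 (-0.20), Spry2 (-0.14) and Spry4 (-0.08) were the 4 below 0, against 8 above, and were not called. Of the called genes, Cbl, a ubiquitin ligase, was at 0.46, and the phosphatases Ptprj and Ptpn1 were at 0.96 and 0.50. Ptpn1 kept its call in 4 of 8 fits with a library left out.

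Of 13 tested genes of the early response to growth factors, 6 were called higher and 1 lower by limma, with a median of 0.69. In all 53.8% were called, against 23.2% of all genes tested. Junb, an AP-1 transcription factor, had 358, 331, 491 and 369 normalised reads in the control libraries and 805, 818, 787 and 1077 in the libraries labelled knockout, with no overlap. It rose by 1.17 ± 0.15 (SE, adjusted p = 0.00397). The zinc finger factor Egr1 rose by 1.08 ± 0.25 and Ier2 by 0.69 ± 0.13 (SE, adjusted p = 0.0158 and 0.00765). Srf, the serum response factor, was the member called lower, at -0.41 (adjusted p = 0.0202), a call kept in 5 of 8 such fits; it was picked out after its values were seen. Ccl2 and Cxcl1 were too low to test. These genes answer many stimuli besides PDGF. Among 6 tested relatives of the receptors and their ligands 2 were called higher (33.3%, against 11.6% of all genes tested). They were Csf1r, the macrophage growth factor receptor (1.58 ± 0.43, SE, adjusted p = 0.0262), and its ligand Csf1 (0.92 ± 0.27, SE, adjusted p = 0.0349). Csf1r kept its call in 6 of 8 fits with a library left out and Csf1 in 2 of 8. Kit was at 0.41 and was not called (adjusted p = 0.409).

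Over the 6 pathway lists together 34 of 72 tested genes were called, 25 higher and 9 lower, or 47.2% against the 23.2% of all genes tested. Their median log2 difference was 0.31. The number called depended on single libraries: it was 16 without knockout replicate 4, 17 without control replicate 2, 19 without control replicate 4 and 22 without knockout replicate 1.

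**Figure D5:**
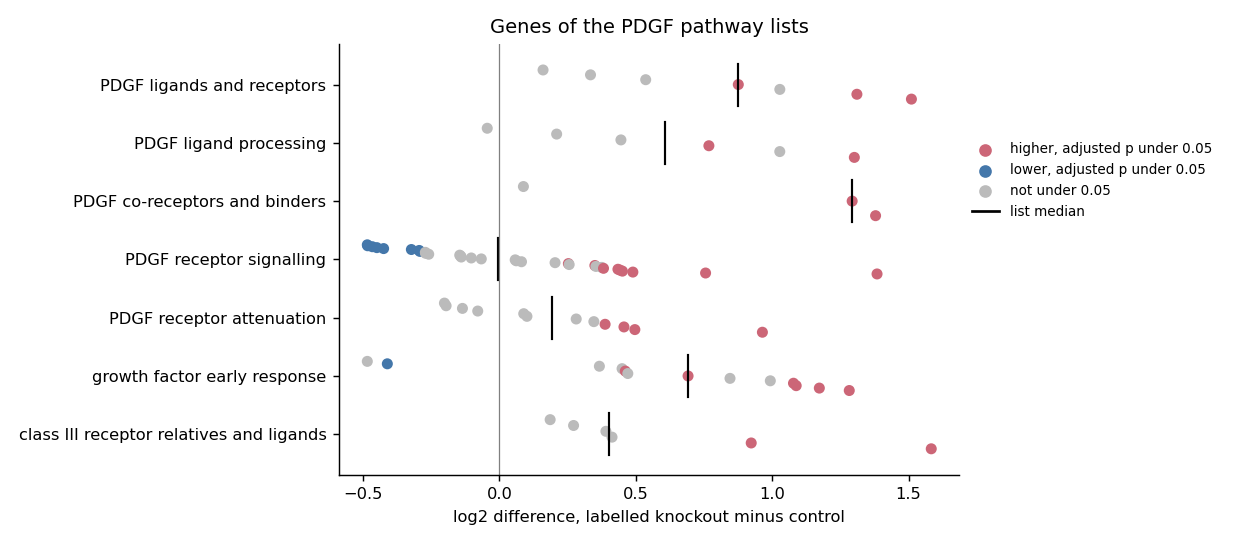
The limma log2 difference of each tested gene (1 point a gene) of the PDGF family and of the 6 pathway lists, coloured by call, with a black line at each list's median. Calls in receptor signalling fall on both sides of 0, and those of the other lists are to the right, except for Srf in the early response.

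The genes whose profile over the 8 libraries was nearest to each PDGF gene were found by the root-mean-square difference of centred log2 values, among 11646 tested genes with a mean of at least 50. For Pdgfra they were Kcne4, Colec12 and Ddr2, at 0.15, 0.16 and 0.17, where the profile of Pdgfra itself had a spread of 0.77 on that scale. Man2b2, Mgat5 and Tceal9 were nearest to Pdgfrb (0.08, 0.09 and 0.09, own spread 0.50), and Cdc42ep5, Nr4a2 and Smoc2 to Pdgfrl (0.21, 0.31 and 0.36, own spread 0.95). Nearest to Pdgfc were Ccdc80, Islr and Slc41a2 (0.17, 0.21 and 0.22, own spread 0.83). Ccl11 was nearest to Pdgfd (0.11, own spread 0.45), followed by Neurl3 and Pde5a. Pdgfa was nearest to Nup160 (0.06) and Pdgfb to Slc30a1, Lrrc45 and Tyk2 (0.09 to 0.11). The own spreads of these ligands were 0.18 and 0.26. The measure describes 8 libraries of 2 groups and carries no test.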

How the data were processed

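The deposited values are normalised signal, the read count of a gene divided by a size factor of the library. Per the submitters' processing notes and design text, the authors used HISAT2, mm10 and featureCounts, and DESeq2 for normalisation and filtering; versions, annotation and strand setting are not given in the sources used here. In each of the 8 columns 100% of values were whole multiples of 1 step (within 0.001 of a whole number), which gave back the reads for the count tests, although the step was 1.009 in control replicate 2 and 0.997 in knockout replicate 1, too near 1 to tell much. All value columns were mapped to samples by library name. Positions and exon lengths came from GENCODE release M21 on mm10, in which 99.2% of the row names were found.

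Genes at 10 or more in 4 or more libraries were tested by limma 3.58.1 (lmFit, eBayes with trend) on log2(value + 1) with 1 term for the group, and p-values were adjusted by Benjamini-Hochberg over all tested genes. A call is an adjusted p under 0.05. For Pdgfrl, a low gene, the log2 difference was 1.53 with a pseudocount of 0.1 and 1.51 with 1. By edgeR and DESeq2 it was 1.41. Single values were compared by exact two-sided permutation over libraries. A score is the mean log2 value of a list's tested markers. Alternatives were pseudocounts of 0.1, 0.5 and 5, the filter, scaling, a replicate block, a muscle covariate, edgeR 4.0.16 and DESeq2 1.42.0 on the recovered reads, and leaving out each library. The fits were tested on simulated data.

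The PDGF genes, the pathway and marker lists and the alternatives were chosen with earlier results of these data known. Named were all 7 PDGF genes, Loxl2, up to 3 called genes of smallest p per list, and the 3 nearest profiles per PDGF gene, of which some for Pdgfa are not reported here. Protein sequences and the promoters of the other 3 genes were not used here.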

Additional observations from a re-analysis of the deposited data

Results flagged for a closer look

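In 26 groups of 4 values (7 genes and 6 ratios, in either label), 4 held a library whose gap to its nearest neighbour was, as a share of the group's range, above Dixon's 95% critical value, and chance flags about 1 in 20 such groups. Pdgfc in control replicate 3 was 231 normalised reads, where the other controls were at 60.6 to 88.7. Pdgfrl in knockout replicate 3 was 102, against 185 to 191 in the other 3. The log2 ratio of Pdgfra to Pdgfa in control replicate 2 was -0.82, and that of Pdgfrb to Pdgfb in control replicate 3 was 1.06. Loxl2 was also high in control replicate 3, at 1135.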

How the results depend on the processing

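Pdgfra and Pdgfrb kept their direction and their call in each fit except the one adding the muscle score as covariate, where the log2 differences were -0.011 and 0.18, with -0.21 for Pdgfa, -0.88 for Pdgfc and 1.44 for Pdgfrl (limma adjusted p of at least 0.992 for each). That fit called 0 of the 7 genes and 0 genes in all. Left-out libraries moved the differences over 0.10 to 0.27 for Pdgfa, 0.23 to 0.46 for Pdgfb, 0.78 to 1.42 for Pdgfc, 0.29 to 0.69 for Pdgfd, 1.06 to 1.498 for Pdgfra, 0.78 to 0.999 for Pdgfrb and 1.15 to 1.80 for Pdgfrl. They moved the calls from 2 to 4 of the 7 genes, from 1751 to 3841 of all genes (3461 with all libraries) and from 16 to 33 pathway genes. With the replicate block the count was 2018 genes, 21 of the pathway, and Pdgfra, Pdgfrb and Pdgfrl stayed called (adjusted p = 0.0293, 0.0318 and 0.0429). Nothing states that the replicate numbers pair the samples. Same-numbered libraries had correlations of deviations from -0.23 to 0.21, and 2 of 8 libraries correlated best with their own number. These values cannot show whether the samples were paired. Under the block, the ratio of Pdgfra to Pdgfa kept its difference of 1.15 with a sign permutation p of 0.125, the smallest that 4 pairs allow. Left-out libraries gave it 0.96 to 1.32, the difference of Pdgfra from the fibroblast score -0.10 to 0.25, and that of Pdgfrb from the mural score 0.62 to 0.98. Quantile normalisation turned the difference of Pdgfra from the fibroblast score to -0.067 (exact permutation p = 0.8286), and its sign also changed on leaving out control replicate 2, control replicate 3, knockout replicate 1 or knockout replicate 3; no setting gave it a call. A scaling to the summed reads outside muscle, erythroid, neutrophil and the 50 highest genes, added after seeing the data, moved the median of all genes by 0.15. It called 2708 genes higher and 784 lower (77.5% higher, against 50.04%), and added Pdgfb at 0.48 (adjusted p = 0.0384). Depth limits Pdgfrl, Pdgfc and Pdgfd most, since they rest on 24, 60 and 39 reads in their lowest library. With principal transcript lengths the control levels per kb of Pdgfa, Pdgfb, Pdgfd, Pdgfra and Pdgfrl moved by more than their spread.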
